A study of Mus musculus with 6 samples.

Results

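Chemokine ligands made up 6 of the 84 wound healing genes on the real-time PCR array, taken as every gene whose symbol begins with Ccl or Cxcl. They were the CC ligands Ccl7 and Ccl12 and the CXC ligands Cxcl1, Cxcl3, Cxcl5 and Cxcl11. The study asked how dermatan sulfate (DS), a sulfated glycosaminoglycan obtained here as 2,4-DS from the ascidian Styela plicata, alters the expression of healing genes in wounded fibroblasts. Primary dermal fibroblasts were explanted from neonate C57BL/6 mice, used between passages 3 and 5, and scratched as a monolayer to model a wound. Control cultures were untreated and received simple DMEM, DS cultures received 2,4-DS, and both groups carried mitomycin C, which stops proliferation, during the incubation. Each group held 3 biological replicates, each with its own array of 96 wells. The methods gave a DS concentration of 50 µg/mL and an incubation of 48 h. The sample labels named 24 h of DS in one field and 72 h in another, and listed a dilution series of DS without tying a sample to a concentration, so the time of sampling is uncertain. Whether cultures came from separate animals or from a pool was not given in the sources used here.

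Chemokines are small secreted proteins that draw leukocytes along a gradient by way of G protein-coupled receptors, and glycosaminoglycans such as heparan sulfate and dermatan sulfate bind many of them and hold them at cell surfaces and in matrix. CC ligands such as Ccl7 and Ccl12 attract mainly monocytes, whereas CXC ligands with a Glu-Leu-Arg motif before the first cysteines, among them Cxcl1, Cxcl3 and Cxcl5, attract neutrophils through Cxcr2. Intact Cxcl11 lacks that motif, is induced by interferons and acts on T cells through Cxcr3. In skin wounds, fibroblasts are a known source of several of these ligands.

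Expression was read as the threshold cycle (CT) of each well, which comes earlier the more template a well holds. A step of 1 cycle is 1 unit on the log2 scale at full amplification efficiency. A gene is called measured in an array where its CT was no later than the cutoff of 36, and a later or missing CT was set to 36. The −ΔCT of a gene is the mean CT of 3 normalizing genes (Hsp90ab1, Egfr and Ccl7) minus the CT of the gene in the same array, so that a higher −ΔCT means more transcript relative to those genes. Differences are DS minus control on this log2 scale. Where a gene was measured in no array of a group, the difference is a bound set by the cutoff, and its standard error and p take no account of that. Such a difference is no bound on transcript where the CT in DS was later than the genomic DNA control, an assay outside any transcript. These are bulk cultures, so fewer expressing cells and less RNA per cell cannot be told apart.

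Of the 6 chemokines, 2 were lower in DS (Ccl12 and Cxcl3), 2 were higher (Cxcl1 and Cxcl11, the latter turning with the 5 housekeeping genes as normalizers), Ccl7 did not pass the threshold and Cxcl5 was measured in no array. The threshold was an adjusted p of 0.05 or less from limma with Benjamini-Hochberg adjustment over the 64 wound healing genes measured in 1 array or more. Among those 64 genes, 71.9% were called higher in DS and 20.3% were called lower. The median difference was −3.60 over Ccl12, Cxcl1, Cxcl3 and Cxcl11, against 4.40 over all tested genes, with bounds included in both. With Ccl7 counted too, at −0.33 in the same fit although it is a normalizer there, the chemokine median was that value, since the members went both ways. Members that passed the filter through the group where they were high had to differ, so these counts and medians are given as a description. With the 5 housekeeping genes of the array as normalizers in place of the 3 genes above, the split over the tested genes was 17 higher and 39 lower, compared with 46 higher and 13 lower, and their median moved from 4.40 to −3.23. Of those 5 genes, Hsp90ab1 alone was measured in control and the other 4 were set to the cutoff there, so every value given with the 5 housekeeping genes rests on the cutoff. Gapdh and Gusb were at the cutoff in DS as well. Gapdh gave no CT in any array, and the only CT of Gusb was 41.1, from DS replicate 3. With the median CT of the 17 assays that every array measured as reference, the median was 7.35.

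**Figure D1:**
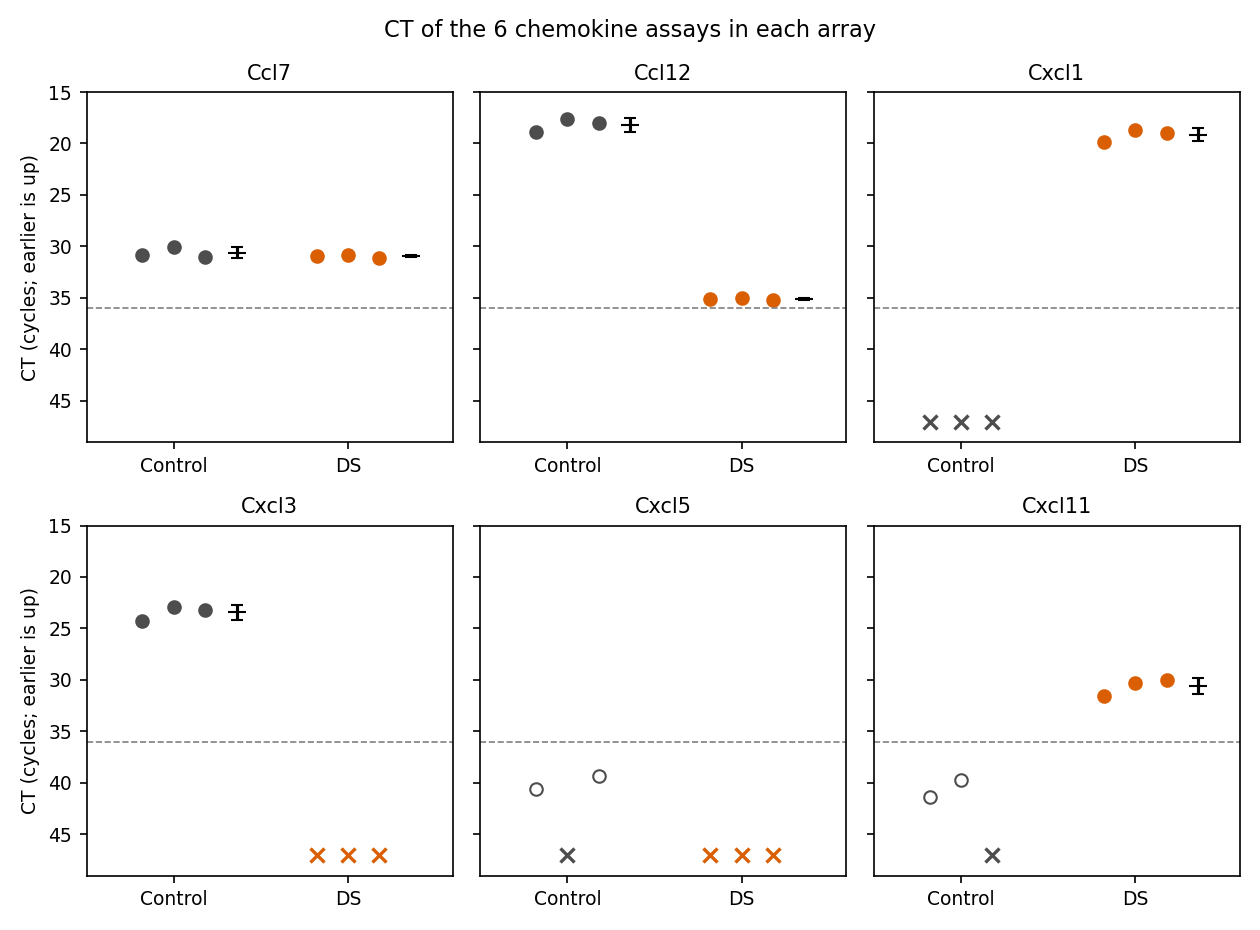
CT in cycles of the 6 chemokine assays, with early CT (more template) at the top and 1 point per array in the 3 control and 3 DS arrays. Filled points are at or under the cutoff of 36 (dashed line), open points are over it, crosses at the bottom mark wells without a CT, and bars give the mean and SD where all 3 arrays were at or under the cutoff. Ccl12 moved from 18.2 to 35.1 cycles while Ccl7 stayed between 30.02 and 31.07.

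The promoters of 3 of the 6 chemokines were held in the RefSeq promoter table, and all 3 are printed because these genes moved in opposite directions, Ccl12 and Cxcl3 lower in DS and Cxcl1 higher. Each is 300 bases long, from 250 bases before the annotated transcription start to 50 after it, on the plus strand of GRCm38.p6. Ccl12 lies at chr11:82101595-82101894, Cxcl1 at chr5:90890995-90891294 and Cxcl3 at chr5:90785851-90786150. Capitals mark matches to GGAATTTCC, a sequence of the kind bound by NF-kappaB, and to TATAAA, the TATA box letters, each searched on both strands.
Ccl12: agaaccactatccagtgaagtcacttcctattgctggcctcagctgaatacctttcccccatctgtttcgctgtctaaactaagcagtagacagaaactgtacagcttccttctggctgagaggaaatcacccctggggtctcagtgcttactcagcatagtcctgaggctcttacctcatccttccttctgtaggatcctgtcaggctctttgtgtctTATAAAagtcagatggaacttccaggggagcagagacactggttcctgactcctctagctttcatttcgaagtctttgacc
Cxcl1: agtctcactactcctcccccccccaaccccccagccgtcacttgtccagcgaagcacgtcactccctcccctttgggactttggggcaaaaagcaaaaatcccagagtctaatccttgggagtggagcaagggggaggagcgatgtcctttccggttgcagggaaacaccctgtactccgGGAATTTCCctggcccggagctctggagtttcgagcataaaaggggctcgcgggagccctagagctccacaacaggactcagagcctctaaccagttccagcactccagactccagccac
Cxcl3: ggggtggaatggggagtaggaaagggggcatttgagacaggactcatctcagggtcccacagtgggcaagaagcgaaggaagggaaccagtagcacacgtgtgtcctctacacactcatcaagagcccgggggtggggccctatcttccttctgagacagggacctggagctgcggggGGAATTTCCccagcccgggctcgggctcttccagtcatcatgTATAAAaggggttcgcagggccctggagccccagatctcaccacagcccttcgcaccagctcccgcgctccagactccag
The letters GGAATTTCC began 70 bases before the start in Cxcl1 and 72 bases before it in Cxcl3, and were not in the Ccl12 window. In all, 104 of 32851 RefSeq promoters of this length held them, or 0.317%. TATAAA began 31 bases before the start in Ccl12 and 30 bases before it in Cxcl3, and was held by 13.6% of the promoters. The matches did not overlap one another. Over their aligned length the Cxcl1 and Cxcl3 windows shared 55.5% of bases, compared with 49.7% for Ccl12 and Cxcl1 and 48.6% for Ccl12 and Cxcl3. Cxcl1 and Cxcl3, which share the longer motif, had opposite differences between DS and control. A match describes letters in the window and does not show that a factor was bound.

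In the RefSeq annotation of the same assembly the CC genes lay on chromosome 11, where Ccl11 separates Ccl7 from Ccl12, with Ccl2 before Ccl7 and Ccl8 after Ccl12. The 4 CXC genes lay on chromosome 5. Cxcl3 stood between Pf4 and Cxcl15, Cxcl1 between Cxcl15 and Cxcl2, Cxcl5 between Rassf6 and Ppbp, and Cxcl11 between Cxcl10 and Nup54. None of these neighbouring chemokine genes was assayed on the array. Cxcl11 was annotated as a transcribed pseudogene in this assembly, which is of the C57BL/6J strain, whereas the other 5 were protein coding, and the transcript named by the array for those 5 was found in the annotation.

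Among the CC ligands, Ccl12, a monocyte attractant that acts through Ccr2, was lower in DS under every choice of normalizer tried. Its CT was 18.92, 17.65 and 18.02 in control replicates 1 to 3 and 35.13, 34.98 and 35.22 in DS replicates 1 to 3. The groups did not overlap, with DS late in all 3 arrays, and the DS values lay within about 1 cycle of the cutoff. The control arrays averaged 18.2 ± 0.653 (SD, n = 3) and the DS arrays 35.1 ± 0.121 (SD, n = 3). On the normalized scale, the mean −ΔCT went from 12.10 ± 0.625 (SD, n = 3) with control medium to −4.82 ± 0.120 (SD, n = 3) with DS. The difference was −16.92 (standard error 0.374, adjusted p = 9.64e-10, limma), and Ccl12 was the only called chemokine measured in all 6 arrays. In DS it came later than the genomic DNA control, which averaged 33.6, so the DS level was not above that background and the difference is best read as a bound on the decrease. Of the 17 gene assays measured in every array, Ccl12 had the largest difference in mean CT, 16.9 cycles, with Mif next at −16.58 cycles. The gap between these sizes is within the spread of Mif (SD 0.83 in control and 1.47 in DS), so their order is not resolved.

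Ccl7, which attracts monocytes through Ccr1, Ccr2 and Ccr3, did not pass the threshold. Its CT was 30.86, 30.02 and 31.01 in the control replicates and 30.92, 30.85 and 31.07 in the DS replicates. The groups overlapped, and the spread was wider among the control arrays. The control arrays averaged 30.6 ± 0.534 (SD, n = 3) and the DS arrays 30.9 ± 0.112 (SD, n = 3). Because Ccl7 is itself 1 of the 3 normalizing genes, it was compared on the sign-reversed CT without normalization, where 93.8% of the 64 tested genes passed the threshold in one direction or the other. Here the difference of Ccl7 was −0.32 (standard error 0.339, adjusted p = 0.379, limma), with a 95% confidence interval from −1.11 to 0.47. Relative to Hsp90ab1 and Egfr alone it was −0.49 (standard error 0.491, adjusted p = 0.359, limma), with an interval from −1.59 to 0.61. Both intervals reach more than 1 unit below 0 and so do not show that the levels were equal. The shift in mean CT, 0.317 cycles, was the smallest of the 17 assays measured in all 6 arrays. Ccl7 was picked as a normalizer from these arrays by the analysis software of the study, as a gene at baseline levels in both groups. This small shift is therefore not an independent result. With the median CT of those 17 assays as reference, the Ccl7 difference was 2.63 (adjusted p = 0.000228, limma) and with the 5 housekeeping genes, 4 of them at the cutoff in control, it was −7.95 (adjusted p = 1.96e-07, limma), within a range of adjusted p from 1.96e-07 to 0.968 over its alternatives.

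Set against Ccl7 alone, which is 1 of the 3 normalizing genes, Ccl12 gave a similar shift, so the comparison is not independent of the one above. Ccl12 CT minus Ccl7 CT was −11.94, −12.37 and −12.99 cycles in the control arrays, and 4.21, 4.13 and 4.15 cycles in the DS arrays. The difference was thus negative in all 3 control arrays and positive in all 3 DS arrays. The mean went from −12.4 ± 0.528 (SD, n = 3) to 4.16 ± 0.0416 (SD, n = 3), a shift of 16.6 cycles with an exact two-sided permutation p of 0.1, the smallest that 3 arrays against 3 can give. The separation shows an unequal change of the 2 genes and not that either of them was constant.

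**Figure D2:**
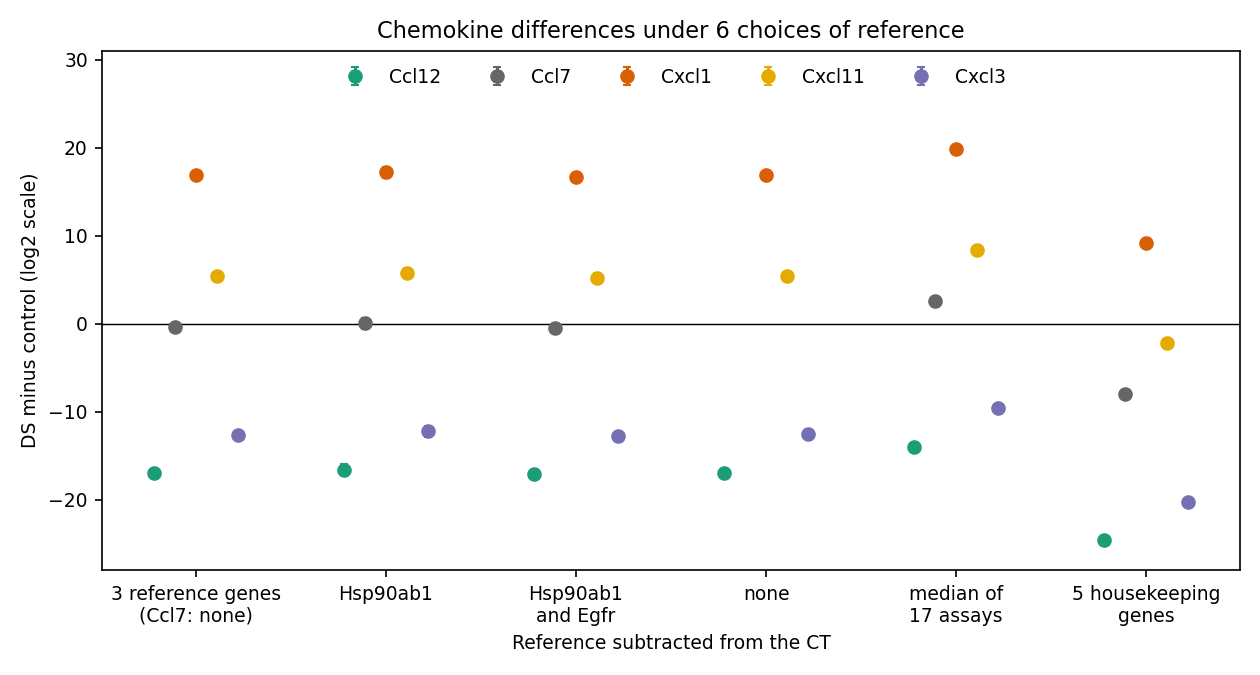
Difference between DS and control on the log2 scale for 5 chemokines under 6 choices of reference subtracted from the CT, with standard errors that are mostly smaller than the points. Cxcl1, Cxcl3 and Cxcl11 are bounds or rest on the cutoff. Ccl12 and Cxcl3 lay below 0 and Cxcl1 above 0 under all 6 choices, whereas Cxcl11 turned to −2.24 with the 5 housekeeping genes and Ccl7 changed sign between references.

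Among the CXC ligands, Cxcl1, a neutrophil attractant, was not detected in control, where all 3 wells lacked a CT. In DS its CT was 19.85, 18.66 and 18.95, a mean of 19.2 ± 0.621 (SD, n = 3). All 3 DS arrays therefore lay far ahead of the cutoff, and the groups did not overlap. The −ΔCT was 11.14 ± 0.631 (SD, n = 3) in DS against −5.70 at the control cutoff, a difference of at least 16.84. The standard error was 0.375 with an adjusted p of 9.64e-10 by limma.

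Cxcl3, another Cxcr2 ligand, had the reverse pattern. Its CT was 24.25, 22.88 and 23.17 in the control arrays, and no DS array gave a CT. Detection was thus complete in control and absent in DS. The control mean was 23.4 ± 0.722 (SD, n = 3), and −ΔCT was 6.87 ± 0.684 (SD, n = 3) in control against −5.71 at the DS cutoff. The difference was at least as negative as −12.58 (standard error 0.388, adjusted p = 5.62e-09, limma), or at least 6109-fold at full amplification efficiency.

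The Cxcl11 assay, for a gene annotated as a pseudogene in the C57BL/6J reference assembly, gave an earlier CT in DS. Its CT was 31.51, 30.27 and 30.03 in the DS arrays, a mean of 30.6 ± 0.794 (SD, n = 3). Control replicates 1 and 2 gave a CT of 41.33 and 39.67, both over the cutoff, and control replicate 3 gave none. The groups did not overlap, with early values in DS alone. The −ΔCT was −0.31 ± 0.806 (SD, n = 3) in DS against −5.70 at the control cutoff, a difference of at least 5.39 (standard error 0.427, adjusted p = 2.70e-06, limma), or at least 41.8-fold. With the 5 housekeeping genes as normalizers the difference turned to −2.24, a value whose sign rests on the cutoff, since Cxcl11 and 4 of those 5 genes lay at it in control.

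Cxcl5, the remaining Cxcr2 ligand, gave a CT of 40.57 in control replicate 1 and 39.32 in control replicate 3, both over the cutoff. Control replicate 2 and all 3 DS arrays gave none. No difference was computed for it, because neither group was measured. The separate exact two-sided permutation tests of Ccl12, Cxcl1, Cxcl3 and Cxcl11 each gave p = 0.1, and that of Ccl7 gave p = 0.5. The smallest p that 3 arrays against 3 can give is 0.1. Cxcl1, Cxcl3 and Cxcl11 had a whole group at the cutoff. Their p therefore followed from detection in the other group and adds nothing to it.

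The bounds depended on the cutoff. At a cutoff of 35, the difference was 15.84 for Cxcl1, −11.58 for Cxcl3 and 4.39 for Cxcl11. With no cutoff, so that late CT were kept as recorded, and with missing CT set to 45, the number of cycles run, the difference was 25.84 for Cxcl1, −21.58 for Cxcl3 and 11.39 for Cxcl11. With the 5 housekeeping genes it was 9.21 for Cxcl1 and −20.20 for Cxcl3.

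**Figure D3:**
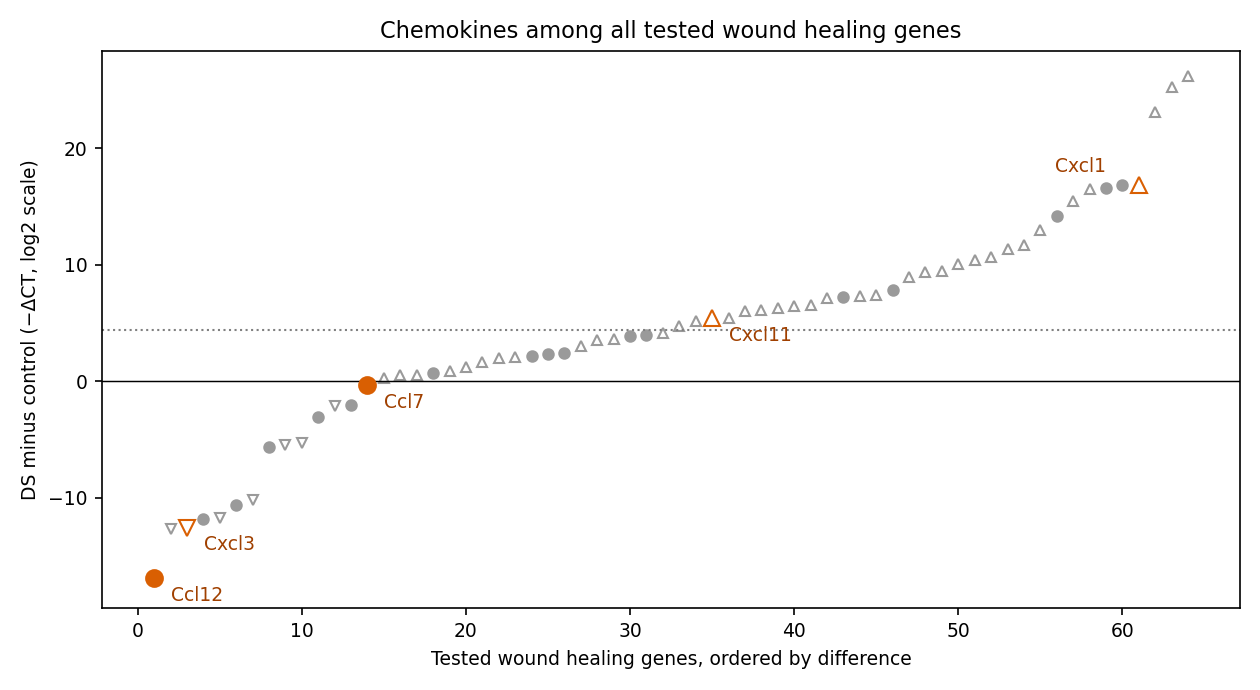
Difference between DS and control on the log2 scale for the 64 tested wound healing genes, ordered from the lowest to the highest, with the chemokines in orange. Circles are genes measured in both groups, open triangles are bounds set by the cutoff, and the dotted line is the median of 4.40. Triangles point in the direction the difference in signal can extend. Where the DS CT lay close to or later than the genomic DNA control, the triangle is no bound on transcript. Ctsg, Mmp7, Col14a1, Plat, Plau and Itgb1 were later than that control in each DS array. At the cutoff of 36, Ccl12 lay at −16.92, Cxcl3 at −12.58 and Cxcl1 at 16.84, and since bounds can extend further the order is not a ranking. Ccl12 is drawn as a circle because it was measured in both groups, although in DS it was later than the genomic DNA control.

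The genes most alike to each chemokine were taken as those with the smallest root mean square difference in −ΔCT over the 6 arrays, after each gene was centred on its own mean. For Cxcl1 these were Stat3 (0.311), Itga2 (0.588) and Mif (0.877). Cxcl3 was closest to the vitronectin gene Vtn (0.427), the collagenase gene Mmp1a (0.884) and the basement membrane collagen gene Col4a3 (1.13). For Cxcl11 they were Col3a1 (0.592), Hbegf (0.603) and Csf3 (0.612). Ccl12 had no partner as near, with 2.18 for Cxcl3, 2.28 for Mmp1a and 2.57 for Vtn. Ccl7, on CT without normalization, was nearest to Plau (0.459), Mmp7 (0.578) and Itgb1 (0.610). In genes with a group at the cutoff, the likeness depends on the cutoff.

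Cytokines that act on or beside chemokine genes were represented by 9 genes, of which 5 were tested, 4 higher in DS and 1 lower, with a median of 7.19. Among all 64 tested genes, 71.9% were called higher and 20.3% lower, so these counts lie near the background. Il1b, a strong inducer of Cxcl1 in fibroblasts, was measured only in DS and was higher by at least 10.61 (adjusted p = 2.04e-08, limma). Ifng, which induces Cxcl11, was measured in all 6 arrays with a difference of 7.19, as was Mif with 16.57. The T cell ligand gene Cd40lg was higher by at least 4.09. Its CT in DS was 31.53, 32.44 and 31.74, against 33.08, 34.02 and 33.78 for the genomic DNA control in the same arrays. Il4 was measured only in control, with a difference at least as negative as −2.13 (adjusted p = 8.06e-05, limma). Tnf, Il10 and Il2 gave no CT in any array, and the only CT of Il6 was 38.61, from control replicate 1, so none of the 4 was tested. The colony stimulating factors of the myeloid cells that chemokines attract were both called higher, as were 71.9% of all tested genes. Csf3 was higher by at least 5.14, and Csf2 had a fitted difference of 3.00. The CT of Csf2 in DS (33.04, 32.85 and 33.09) lay close to the genomic DNA control, so its value is not read as a bound on transcript. With the 5 housekeeping genes as normalizers, 2 of the 5 cytokines (Il1b and Mif) were higher and 2 lower (Cd40lg and Il4), Ifng was at −0.43 (adjusted p = 0.488, limma), and both colony stimulating factors turned to lower. Under the same normalizers, 17 of the 64 tested genes were higher and 39 lower.

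Chemokine receptors were not among the genes of the array. Of 6 genes used in signalling downstream of such receptors, all 6 were called higher in DS, with a median of 12.92, against 71.9% of all tested genes. The same 6 were measured only in DS, as were 39 of the 64 tested genes, not all of them called. The bound was 16.45 for the transcription factor gene Stat3 and 15.47 for the kinase gene Mapk3. The GTPase genes Rhoa and Rac1 had bounds of 10.37 and 6.00. Of 5 proteases known to trim chemokines, 3 were higher, 1 was lower and 1 did not pass the threshold, with a median of 1.21. Mmp9 and Mmp2 were higher by at least 7.41 and 6.30, whereas Ctsg, the neutrophil protease cathepsin G, had a fitted difference of 1.21. The CT of Ctsg in DS, 34.04, 35.52 and 34.79, was later than the genomic DNA control in each array, so its value is no bound on transcript, and it did not pass the threshold relative to Hsp90ab1 and Egfr (1.04, adjusted p = 0.0547, limma). Mmp1a was measured only in control, with a difference at least as negative as −12.69. Mmp7 had a fitted difference of 0.49 (adjusted p = 0.215, limma). Its CT in DS was also later than the genomic DNA control in each array, so that value is no bound on transcript. With the 5 housekeeping genes, 4 of the 6 signalling genes were called higher, Rac1 was at −1.62 and did not pass the threshold, and the proteases Mmp1a, Ctsg and Mmp7 were lower, with −1.32 for Mmp2 and −0.22 for Mmp9, which did not pass. With the 3 normalizing genes, the background for these lists was 71.9% of tested genes called higher. With the 5 housekeeping genes, it was 17 of the 64 tested genes higher and 39 lower.

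The 3 listed markers of the labelled cell type did not appear in the control arrays. The fibroblast collagen genes Col1a1, Col1a2 and Col3a1 gave a mean CT of 24.7, 23.1 and 29.9 in DS and no CT in any control array, so that all 3 of 3 were called higher in DS, as were 71.9% of all tested genes, Col3a1 turning to −1.53 with the 5 housekeeping genes. Another fibrillar collagen gene, Col5a2, which was not on the list and was chosen after its values were seen, was measured in all 3 control arrays at a mean CT of 23.7, so collagen transcript was not absent from control. Of the myofibroblast or smooth muscle markers, Tagln gave a mean CT of 12.9 in DS alone, Acta2 gave no CT in any array and Actc1 gave a CT only in DS, from 36.01 to 37.55. Among epithelial markers, Itgb6 gave a mean CT of 9.81 in DS alone, and Cdh1 ranged from 38.25 to 39.63 in DS, over the cutoff. The leukocyte markers Cd40lg and Ctsg gave a mean CT of 31.9 and 34.8 in DS alone, Ctsg later than the genomic DNA control in all 3 arrays, whereas Il2 and Il10 gave none in all 6 arrays. The number of gene assays at or under the cutoff moved in the same direction, with 26, 25 and 25 of 89 in the control arrays and 60, 60 and 58 in the DS arrays. The part of these differences in the chemokine results was not tested.

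Control wells also differed between the groups. The genomic DNA control, an assay outside any transcript, gave a CT of 33.08, 34.02 and 33.78 in DS, whereas no control array gave one. Ccl12 was later than this control in all 3 DS arrays, with a genomic DNA CT minus Ccl12 CT of −2.05, −0.96 and −1.44 cycles. The genomic DNA CT minus Ccl7 CT was 2.16, 3.17 and 2.71 cycles in the same arrays. For Cxcl11 it was 1.57, 3.75 and 3.75 cycles, and for Cxcl1 it was 13.23, 15.36 and 14.83 cycles. By these wells alone, the Ccl12 signal and genomic DNA in DS cannot be told apart, although the methods include a DNase step before reverse transcription, and the separate RNA quality run of the study was not analysed here. Cxcl1 lay more than 13 cycles ahead of that control. Of the 3 wells of the reverse transcription control, which hold the same assay, H07 gave a CT only in DS (29.56, 30.18 and 28.95). Well H08 gave a CT of 22.74, 21.68 and 23 in control and only values over the cutoff or none in DS. Well H09 gave 32.77, 31.55 and 32 in DS and a single CT of 38.03 in control. The difference between the latest and the earliest CT of these wells was 15.29 cycles in control replicate 1 and 10.13, 1.37 and 12.05 cycles in the DS arrays. Actb, the housekeeping gene for cytoplasmic actin, gave a CT of 13.05, 11.55 and 12.01 in DS and none in control. B2m was likewise measured in DS alone, whereas Gapdh and Gusb were at the cutoff in all 6 arrays. With missing or later wells at 36, the mean over the 5 housekeeping genes shifted by −7.63 cycles in DS relative to control, a value set largely by the cutoff. The mean over the 3 normalizing genes differed by −0.01 cycles between the groups. These genes were picked from these arrays for baseline levels in both groups, so that value is not an independent result. Their mean CT shifted in DS by −0.70 cycles for Egfr, 0.35 for Hsp90ab1 and 0.32 for Ccl7. On the sign-reversed CT without normalization, Egfr passed the threshold at 0.70 (adjusted p = 0.0498, limma). The 3 positive PCR control wells gave no CT in all 6 arrays. A single layout of genes over wells was used for all 6 arrays, as the files give it, and whether it held in both groups was not tested. What part the behaviour of these wells has in the chemokine differences was not tested.

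**Figure D4:**
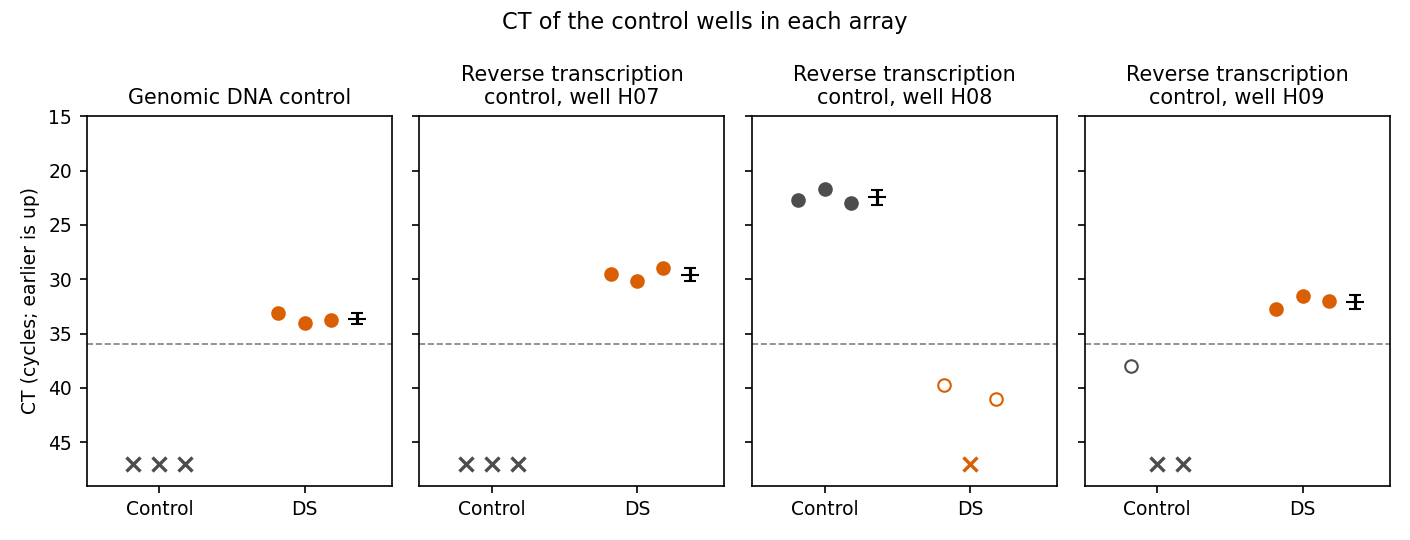
CT in cycles of the genomic DNA control and of the 3 reverse transcription control wells in the 3 control and 3 DS arrays, with early CT at the top. Filled points are at or under the cutoff of 36 (dashed line), open points are over it, crosses mark wells without a CT, and bars give the mean and SD. The reverse transcription control wells hold the same assay, yet well H08 was early in control at 22.5 and wells H07 and H09 were early in DS at 29.6 and 32.1.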

How the data were processed

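RNA of 3 control and 3 DS cultures, described as biological triplicates, was reverse transcribed and run on SYBR Green arrays. The authors exported CT values from the Rotor-Gene software and deposited them per array and well, without normalization or cutoff. The authors also deposited a ratio to the normalizing genes for each gene, averaged per group, used here only as an alternative.

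From the CT, −ΔCT was computed with a cutoff of 36 against Hsp90ab1, Ccl7 and Egfr, whose CT were averaged arithmetically. Two-sided limma 3.58.1 tests (eBayes after lmFit, R 4.3.3) covered the 64 of 84 wound healing genes measured in 1 array or more, with Benjamini-Hochberg adjustment. This replaced the study's own test of each gene on 2 to the power of −ΔCT, kept as an alternative. The fit was tested on simulated data without a cutoff or normalizing genes, so that test does not cover genes with a group at the cutoff. Exact permutation tests used R and scipy 1.17.1, promoter alignments Biopython 1.88 and plots matplotlib 3.10.9. Of the 6 array transcripts, 5 were matched to RefSeq.

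All 6 chemokines were named, with partner lists of cytokines, colony stimulating factors, receptor signalling genes and proteases, markers and control wells. Members and lists were chosen with earlier results of these data known. Alternatives were other normalizing genes or none, a geometric mean, cutoffs of 35 and 40 and no cutoff, other filters, the study's own test, the deposited ratios, a replicate block and each array left out. p-values measure the spread between 3 arrays a group, which limma moderates over genes. In a group wholly at the cutoff, the spread is that of the normalizing genes and not of the gene. An array has no sequencing depth, and the number of arrays limits the precision. No wells of any pair of arrays with a CT in both had equal CT. In vivo experiments and wells without template were not analysed here. A few list members enter the counts and are not reported here by name.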

Additional observations from a re-analysis of the deposited data

Results flagged for a closer look

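Signals appeared in wells outside the gene comparisons and stood above the control arrays. The genomic DNA control had a mean CT of 33.6 ± 0.488 (SD, n = 3) among DS arrays, and control arrays lacked a CT. Reverse transcription control well H07 had a mean CT of 29.6 ± 0.615 (SD, n = 3) among DS arrays and no CT elsewhere. Well H09 had a mean CT of 32.1 ± 0.617 (SD, n = 3) in DS, with a single control CT of 38.03, over the cutoff. Well H08, which holds the same assay, went the other way, with a mean CT of 22.5 ± 0.699 (SD, n = 3) among control arrays and 39.69, 41 or no CT with DS. Their part in the chemokine differences was not tested.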

How the results depend on the processing

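Ccl12 (21 alternatives, −24.55 to −13.97), Cxcl1 (20, 9.21 to 25.84) and Cxcl3 (20, −21.58 to −9.62) kept their direction under every alternative run, and Cxcl11 did so in 19 of 20. The 3 also kept their side of the threshold wherever a test was run, which leaves out the deposited ratios. With the 5 housekeeping genes, Cxcl11 turned to −2.24, Ccl7 became −7.95 and passed the threshold, the median of the tested genes turned to −3.23, and 17 genes were higher and 39 lower. With 4 of those 5 genes at the cutoff in control, their mean differs by −7.63 cycles between the groups, which shifts every gene by the same amount. Ccl7 turned to 0.033 with Hsp90ab1 alone and to 2.63 with the median CT of the 17 assays measured in all 6 arrays, and the cause was not tested. With only genes measured in all 6 arrays, 8 were higher and 6 lower, since fewer genes were tested. By the study's own test 36 were higher and 9 lower unadjusted, and 27 higher and 9 lower after Benjamini-Hochberg adjustment, and the cause was not tested. The median of the tested genes, 4.40, was 7.35 with the median CT as reference, 3.86 and 6.07 at cutoffs of 35 and 40, 10.21 without a cutoff, 2.01 without the filter and 1.43 with only genes measured in all 6 arrays. Cxcl5 was at or under the cutoff in 1 array at a cutoff of 40 and in 2 without a cutoff.

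Leaving out 1 array at a time gave −17.25 to −16.63 for Ccl12, 16.59 to 17.19 for Cxcl1, 5.10 to 5.85 for Cxcl11, −12.95 to −12.28 for Cxcl3 and −0.51 to −0.01 for Ccl7, with 44 to 46 genes higher, 13 to 13 lower, a median of 4.34 to 4.62 and a Ccl12 minus Ccl7 shift of 16.3 to 16.8 cycles. No chemokine changed its side of the threshold. With the replicate number as a block, Ccl12 was −16.92, and 45 genes were higher and 13 lower, with no chemokine call changed. Deviations of arrays with the same number correlated at 0.0832, 0.0506 and −0.199 over 17 assays, so the arrays share only a number, and no array correlated best with its own number.

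Precision is limited by 3 arrays a group. Bounds move with the cutoff, and Ccl12 in DS lies near it.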
